A study of Mus musculus with 3 samples.

Results

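The genes described here encode enzymes that remove superoxide and peroxides: the superoxide dismutases Sod1 and Sod2, the peroxiredoxins Prdx1 to Prdx6 and the glutathione peroxidases Gpx1 and Gpx4. They were chosen by name, as the probes whose platform gene symbol is one of 10 listed symbols. Of the 10 genes, 8 have a probe named in the annotation used here (Sod1, Sod2, Prdx1, Prdx2, Prdx3, Prdx4, Gpx1 and Gpx4), and Prdx5 and Prdx6 were not analysed here. These 8 are set among 9082 genes detected on at least 1 array, of 16593 genes with a named probe, and all 8 were detected on all 3 arrays. The RNA came from 4T1 cells, a mouse mammary carcinoma line, made to carry GFP and grown in the mammary pad of female Balb/C mice aged 10 to 12 weeks. The arrays labelled CCC, MCC and PCC hold GFP-sorted cells from the circulation, from metastases in the lung and from the primary breast tumour. All 3 groups share the same line, the GFP label, the host strain and the sort, and the labels name no treatment. The number of mice or sorts pooled on each array is not stated in the labels, and the line is a single implanted line. Each group has 1 array, so every value below is a single measurement with no replicate and no test, and a difference of at least 2-fold is called large only by that fixed size.

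Superoxide dismutases turn superoxide into hydrogen peroxide, Sod1 with copper and zinc in the cytosol and the space between the mitochondrial membranes, Sod2 with manganese in the mitochondrial matrix. Peroxiredoxins then reduce hydrogen peroxide through a reactive cysteine that thioredoxin regenerates, and glutathione peroxidases do so with glutathione, in Gpx1 and Gpx4 through selenocysteine. Prdx1 and Prdx2 act mainly in the cytosol, Prdx3 in the mitochondrial matrix and Prdx4 in the endoplasmic reticulum, where peroxide arises as proteins form disulfide bonds. Gpx1 is mainly cytosolic with some in mitochondria, and Gpx4, which reduces lipid peroxides in membranes and holds back ferroptosis, has cytosolic, mitochondrial and nuclear forms. The coactivator PGC-1α, named in the series title, is known in other cells to raise mitochondrial antioxidant enzymes along with respiration, so that the mitochondrial members are set apart from the cytosolic ones here.

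The promoter windows of Sod1, Prdx4 and Prdx2 are shown because these members had the widest range over the arrays after normalization, and that of Prdx1 because it is the other member whose window holds a motif searched. Each window holds 250 bases before and 50 after the start site, 5′ to 3′ on the gene's strand, from RefSeq on GRCm38.p6. They lie at chr16:90220512-90220811 on the plus strand (Sod1), chrX:155338411-155338710 on the minus strand (Prdx4), chr8:84969372-84969671 on the plus strand (Prdx2) and chr4:116685349-116685648 on the plus strand (Prdx1). Capitals mark matches to the antioxidant response element TGACNNNGC, the site known to bind NRF2, read here on the opposite strand.
Sod1: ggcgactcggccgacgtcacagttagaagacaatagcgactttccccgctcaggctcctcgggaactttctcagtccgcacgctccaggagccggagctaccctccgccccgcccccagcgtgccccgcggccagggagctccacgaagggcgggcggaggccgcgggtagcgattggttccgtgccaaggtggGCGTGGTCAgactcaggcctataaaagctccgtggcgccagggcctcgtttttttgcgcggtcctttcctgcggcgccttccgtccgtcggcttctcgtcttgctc
Prdx4: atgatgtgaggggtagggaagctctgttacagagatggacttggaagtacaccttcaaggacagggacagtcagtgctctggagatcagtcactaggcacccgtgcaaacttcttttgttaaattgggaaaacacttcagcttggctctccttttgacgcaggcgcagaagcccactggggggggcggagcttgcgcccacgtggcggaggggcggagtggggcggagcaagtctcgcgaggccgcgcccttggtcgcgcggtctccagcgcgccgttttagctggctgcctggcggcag
Prdx2: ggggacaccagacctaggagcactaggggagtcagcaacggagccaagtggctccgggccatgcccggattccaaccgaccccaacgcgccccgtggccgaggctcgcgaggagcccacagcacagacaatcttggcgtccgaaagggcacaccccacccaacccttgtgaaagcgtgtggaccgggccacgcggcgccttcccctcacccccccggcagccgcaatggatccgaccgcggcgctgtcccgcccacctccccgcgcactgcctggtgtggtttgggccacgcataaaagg
Prdx1: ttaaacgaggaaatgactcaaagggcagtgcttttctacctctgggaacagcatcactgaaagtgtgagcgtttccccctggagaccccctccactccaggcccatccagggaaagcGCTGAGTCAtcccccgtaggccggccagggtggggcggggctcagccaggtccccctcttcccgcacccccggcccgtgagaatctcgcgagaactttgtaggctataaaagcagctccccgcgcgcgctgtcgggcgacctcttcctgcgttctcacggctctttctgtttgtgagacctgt
The element begins 56 bases before the start site in Sod1 and 133 bases before it in Prdx1. Of 11 windows of the 8 measured members (4 of them of Gpx4), 2 hold it, and so do 12.4% of all 32851 windows in the table. The ERR element TNAAGGTCA, bound by a nuclear receptor that PGC-1α coactivates, is in 0 of the 11 windows and 1.28% of all windows, and the NRF1 core CGCATGCG is in 0 of the 11 and 1.87% of all. Both strands were searched, and since the members' windows hold matches of 1 motif only, no match overlaps that of another motif. A match is a description of letters only, and so is its absence from these short windows.

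The arrays differed in brightness and in genes of other cell types, which touches every difference below. The mean deposited intensity was 462 on CCC, 232 on MCC and 410 on PCC, and between 41.0% and 44.6% of 25697 probes were detected at a detection p under 0.01. The summed intensity of 7 epithelial markers, of which Krt8 and Krt18 were brightest and detected on all 3 arrays, was 8298 on CCC, 5505 on MCC and 6947 on PCC, with 3, 7 and 4 detected. Krt19, Esrp1 and Cldn7 were undetected on both CCC and PCC, and on MCC Esrp1 was at least 21.0-fold, Cldn4 25.6-fold and Krt19 at least 11.6-fold higher than on PCC. The summed intensity of 9 fat cell markers, of which Lpl and Plin4 were brightest, was 198 on CCC, 22295 on MCC and 11.5 on PCC, with 1, 7 and 0 of the 9 detected. Fabp4 and Retn were undetected on all 3. The sum of 8 lymphocyte markers (Cd3g and Cd27 brightest) was 4598, 14138 and 627, with 7, 8 and 5 detected, and Cd79a and Cd79b were undetected on PCC. The sum of 10 macrophage markers (Lyz2 and C1qc brightest) was 30341, 5784 and 5179, with 10, 8 and 9 detected, Fcgr1 and Itgam being undetected on MCC and Itgam on PCC. The sum of 7 endothelial markers (Egfl7 and Emcn brightest) was 2511, 5892 and 955, with 6, 6 and 4 detected. That of 5 red cell markers (Hba-a1 and Alas2 brightest) was 1270, 3936 and 1357, with 1, 3 and 2 detected. Of these 5, Epb42 and Slc4a1 were undetected on all 3 arrays, and Hba-a1 alone was detected on CCC. For 7 fibroblast markers (Dcn and Pdgfra brightest) the sum was 13291, 7070 and 12753, with 7, 7 and 5 detected. For 10 neutrophil markers it was 3383, 2602 and 4714 with 5 detected on each array, and its members differed in opposite directions, S100a8 28.4-fold and S100a9 29.6-fold lower but Ltf 51.5-fold higher on MCC than on PCC. For 8 lung epithelium markers (Abca3 and Ager brightest) it was 1010, 1114 and 484, with 1, 4 and 1 detected. Of these, Abca3 was higher on MCC than on PCC by a log2 difference of 1.76, Ager, Cyp2f2 and Sftpd were detected on MCC alone, and Sftpc, Sftpb, Sftpa1 and Scgb1a1 were undetected on all 3. The sums above are of deposited intensities, not scaled between arrays, and are led by the brightest probes. Medians of log2 differences over detected genes are another measure, and for some lists they went the other way. Of 5 fibroblast markers detected on both MCC and PCC, 4 were higher on MCC after normalization. Their median log2 difference was 0.70, or 0.22 without normalization. Of 4 epithelial markers 3 were higher, with a median of 1.63, or 0.89 without normalization. Of 8 macrophage markers 5 were lower, with a median of -0.50, or -1.17 without normalization. The part of other cell types in the members' values was not tested, and fewer cells of a type and less RNA per cell cannot be told apart in a bulk sample.

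Between the circulating and the primary tumour array the 8 enzymes differed little. The largest difference was that of Gpx1, 1.64-fold higher on CCC, followed by Prdx3 (1.46-fold higher) and Gpx4 (1.28-fold higher). The median log2 difference of the 8, CCC minus PCC, was 0.20, against -0.10 over all 7286 genes detected on both arrays, and 6 of the 8 lay above that median. None of the 8 reached 2-fold, a size that 4.95% of all genes passed upward and 3.68% downward. With 75th percentile scaling the members' median became 0.02, and Sod1 (-0.03) and Prdx1 (-0.01) took the other sign, as did Prdx2 (0.07) and Sod2 (0.04) without normalization.

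Between the metastatic and the primary tumour array the enzymes differed in both directions. Prdx4 was 4.49-fold lower and Prdx2 2.16-fold lower on MCC, and Sod1 was 2.18-fold higher. The background was wide, since of 6829 genes 14.2% passed 2-fold upward and 21.1% downward on MCC, and 3 of 8 members past that size is read against it. The median log2 difference of the 8 was -0.04, against -0.16 over all genes, and 4 of the 8 lay inside the quartiles of all genes (-0.85 to 0.53). Prdx4 was the member outside the range from the 5th to the 95th percentile of all genes (-2.09 to 2.06).

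Between the circulating and the metastatic array Prdx4 was 5.10-fold and Prdx2 2.01-fold higher on CCC, and Sod1 was 2.04-fold lower. Here 16.6% of 7313 genes passed 2-fold upward and 17.3% downward. Prdx4 and Prdx2 were higher on CCC under all 9 settings run, and Sod1 was not lower under every one, as given below. The median of the 8 members was 0.52, against -0.01 over all genes. These differences follow from those of the other 2 pairs, which share the PCC array.

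**Figure D1:**
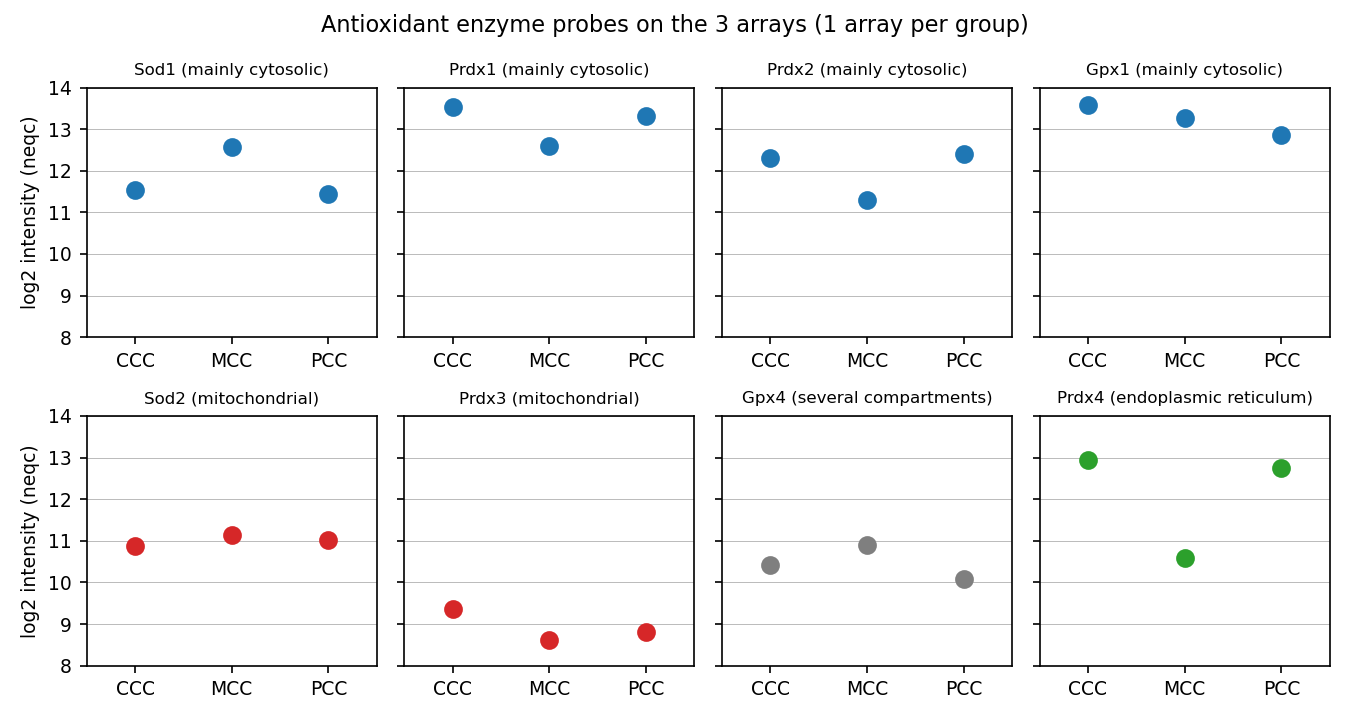
Log2 intensity after background correction and quantile normalization (vertical axis) of the 8 measured enzymes on the arrays CCC, MCC and PCC (horizontal axis), 1 point per array, coloured by compartment. Prdx4, Prdx2 and Prdx1 are lowest on MCC and Sod1 is highest there, while Sod2 stays within 0.26; levels of different genes come from different probes and are not to be compared.

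**Figure D2:**
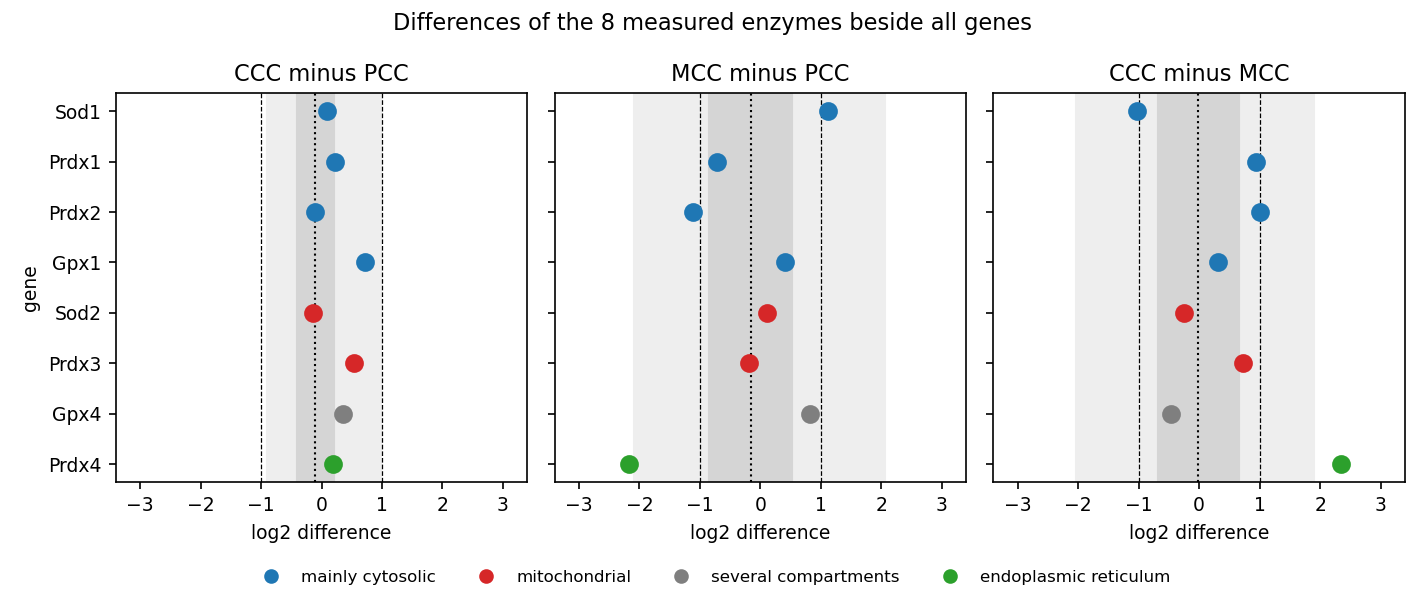
Log2 difference (horizontal axis) of each enzyme (vertical axis) in the 3 pairs of arrays, 1 point per gene, with dashed lines at 2-fold. Dark and pale grey give the middle part of all genes, from the 25th to the 75th and from the 5th to the 95th percentile, and the dotted line their median; Prdx4 at -2.17 and 2.35 lies outside the pale band in the 2 pairs that hold MCC.

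Scaling carries much of what can be said of the array labelled MCC, which is the dimmest. Without normalization the median of all genes moved by 0.23 for CCC minus PCC, by -0.59 for MCC minus PCC and by 0.84 for CCC minus MCC. The share of higher genes among all genes past 2-fold moved with it, to 82.4% without normalization against 57.4% with it for CCC minus PCC, to 14.7% against 40.2% for MCC minus PCC and to 88.1% against 49.0% for CCC minus MCC. Members are therefore also given relative to the median of all genes under the same setting. The list medians below given without normalization include this shift.

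The cytosolic dismutase Sod1 had deposited intensities of 3786 on CCC, 3279 on MCC and 3163 on PCC. After normalization its log2 intensity was 11.53 on CCC, 12.56 on MCC and 11.43 on PCC, so that MCC stood above the other 2 arrays, which differed by 0.10. The log2 difference of MCC minus PCC was 1.13, but 0.55 under 75th percentile scaling, 0.76 in the authors' second table and 0.05 without normalization. Relative to all genes it lay between 0.81 and 1.32 under all 9 settings run, and 87.8% of genes had a lower difference than Sod1. For CCC minus MCC the difference was -1.03, and it turned to 0.21 without normalization, still 0.62 below all genes. Ccs, the chaperone that loads copper into Sod1, had log2 intensities of 10.24 on CCC, 11.16 on MCC and 10.12 on PCC. It was 2.07-fold higher on MCC than on PCC, a log2 difference of 1.05 that was 0.12 without normalization. Relative to all genes the difference of Ccs was 1.21, and 0.88 without normalization.

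The mitochondrial dismutase Sod2 had the narrowest range of the 8 members after normalization, though not in the deposited intensities, where that of Sod1 was narrower. Its deposited intensities were 2406 on CCC, 1321 on MCC and 2340 on PCC, and its normalized log2 intensities 10.88, 11.14 and 11.03. The widest difference was -0.26 (CCC minus MCC), and it took the other sign under 75th percentile scaling (0.07), in the second table (0.05) and without normalization (0.86). MCC minus PCC was 0.11, from -0.06 to 0.31 relative to all genes.

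Among the peroxiredoxins Prdx4 varied most. Its deposited intensities were 10092 on CCC, 920 on MCC and 8002 on PCC. The normalized log2 intensities were 12.94 on CCC, 10.59 on MCC and 12.76 on PCC, with CCC and PCC 0.18 apart and MCC far below both. The log2 difference of MCC minus PCC was -2.17, and it lay between -3.10 and -2.13 under the settings run, or -2.35 to -1.97 relative to all genes. Of all genes, 4.66% had a lower difference. For CCC minus MCC it was 2.35, with 97.2% of genes lower, and from 2.31 to 3.43 over the settings. It is the one member of the 8 whose difference from MCC passed 2-fold in the same direction under every setting run.

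The cytosolic peroxiredoxins Prdx1 and Prdx2 were also lower on MCC. Prdx1, which also acts in redox signalling, had deposited intensities of 14643 on CCC, 3394 on MCC and 11998 on PCC and log2 intensities of 13.54, 12.60 and 13.32. Its MCC minus PCC difference was -0.72, short of 2-fold, and it passed 2-fold under 75th percentile scaling (-1.32), in the second table (-1.10) and without normalization (-1.82). Prdx2, abundant in red blood cells, had deposited intensities of 6540 on CCC, 1466 on MCC and 6250 on PCC and log2 intensities of 12.31, 11.30 and 12.41. Its difference of -1.11 was -0.86 when its 2 detected probes were averaged, and between -1.33 and -0.67 relative to all genes. The haemoglobin gene Hba-a1 was 5.94-fold higher on MCC than on PCC. The part of red blood cells in the Prdx2 values was not tested.

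Prdx3, the mitochondrial peroxiredoxin, was higher on CCC than on both other arrays. Its deposited intensities were 801 on CCC, 256 on MCC and 471 on PCC, and its log2 intensities 9.35, 8.63 and 8.81. It was 1.46-fold higher on CCC than on PCC, a log2 difference of 0.54, with 88.5% of genes lower and between 0.57 and 0.66 above all genes under 10 settings. MCC and PCC differed by -0.18, between -0.16 and 0.01 relative to all genes.

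The glutathione peroxidases were both lowest on PCC after normalization. Gpx1 had deposited intensities of 15208 on CCC, 5637 on MCC and 8614 on PCC and log2 intensities of 13.58, 13.27 and 12.86. It was 1.64-fold higher on CCC than on PCC, with 92.2% of genes lower, and between 0.69 and 0.83 above all genes under 10 settings. Its MCC minus PCC difference of 0.41 turned to -0.11 under 75th percentile scaling and -0.61 without normalization. Gpx4 had deposited intensities of 1717 on CCC, 1122 on MCC and 1192 on PCC and log2 intensities of 10.43, 10.90 and 10.07. Its MCC minus PCC difference of 0.82 (1.77-fold) was -0.09 without normalization, and between 0.67 and 1.02 above all genes under 9 settings. Its CCC minus MCC difference of -0.47 turned to 0.61 without normalization.

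Each member rests on 1 bright probe. Of 12 probes of the 8 genes, 8 were detected on all 3 arrays, 1 per gene. The 4 others, 1 of Prdx1, 2 of Prdx2 and 1 of Gpx4, had deposited intensities between -4.46 and 39.8, and 1 of Prdx2 passed detection on PCC alone (detection p 0.00752). No second bright probe bears on any of the differences above. Where other genes had several detected probes, the median gap between their log2 differences was 0.23 for CCC minus PCC (1784 genes), 0.37 for MCC minus PCC (1560 genes) and 0.41 for CCC minus MCC (1670 genes).

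**Figure D3:**
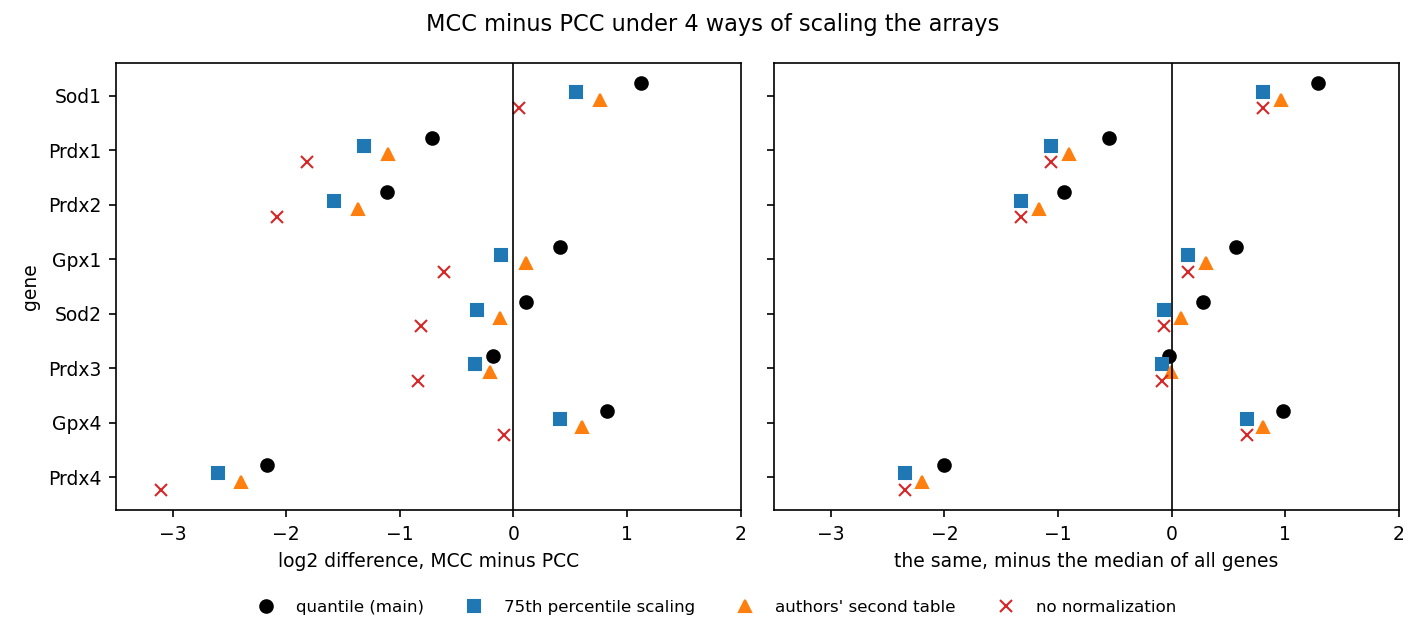
Log2 difference MCC minus PCC of each enzyme (vertical axis) under quantile normalization, 75th percentile scaling, the authors' second table and no normalization, as such (left) and minus the median of all genes under the same setting (right). Prdx4 is left of 0 and beyond -1.9 throughout, whereas Sod1 spans 1.13 to 0.05 on the left and stays above 0.8 on the right. On the right, 75th percentile scaling and no normalization give the same value by construction.

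The enzymes did not separate by compartment. The mitochondrial members Sod2 and Prdx3 had a median log2 difference of 0.20 for CCC minus PCC, against 0.16 for the 4 cytosolic members Sod1, Prdx1, Prdx2 and Gpx1. For MCC minus PCC the medians were -0.04 and -0.15, and for CCC minus MCC 0.23 and 0.62. The mitochondrial minus the cytosolic median was thus 0.04, 0.12 and -0.39. For MCC minus PCC the cytosolic members alone ran from -1.11 (Prdx2) to 1.13 (Sod1), with both mitochondrial members between them (-0.18 and 0.11). In the pair CCC minus PCC the mitochondrial members stood at -0.15 (Sod2) and 0.54 (Prdx3) and the cytosolic ones ran from -0.10 to 0.72. The values rest on the choice of members. With Gpx4 counted as mitochondrial and Gpx1 left out, the gap was 0.83 for MCC minus PCC and -1.19 for CCC minus MCC, as Prdx1 is then the cytosolic median.

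The list of other family members, with catalase and the chaperone Ccs added, holds 9 genes with a probe (Sod3, Gpx2, Gpx3, Gpx5, Gpx6, Gpx7, Gpx8, Cat and Ccs). Of these, 5 were detected on both MCC and PCC, 3 at least 2-fold higher (Gpx3, Cat and Ccs) and 2 lower (Sod3 and Gpx8), beside 14.2% of all genes higher and 21.1% lower. These 2 shares over all genes are the background for each MCC minus PCC count of a list that follows. Gpx3, the secreted plasma glutathione peroxidase that fat tissue also makes, had log2 intensities of 7.83 on CCC, 12.36 on MCC and 6.77 on PCC, 48.5-fold higher on MCC than on PCC. The fat cell markers given above were brightest on the same array, and the part of fat cells in the Gpx3 values was not tested. Catalase (Cat), the peroxisomal enzyme that breaks down hydrogen peroxide, was at 8.86, 11.23 and 9.33, 3.72-fold higher on MCC than on PCC. Gpx8, a glutathione peroxidase of the endoplasmic reticulum membrane, was at 11.49, 8.34 and 11.09, 6.75-fold lower on MCC than on PCC and 8.91-fold higher on CCC than on MCC. Sod3, the extracellular dismutase, was at 7.72, 5.60 and 8.62, 8.13-fold lower on MCC and 1.87-fold lower on CCC than on PCC. It lay at the edge of detection on MCC, where the lowest detected log2 intensity was 5.60. Gpx7, also of the endoplasmic reticulum, and the epithelial Gpx2 were detected on MCC and on neither other array, at least 1.89-fold and 1.44-fold higher than on PCC. Gpx5 and Gpx6 were undetected on all 3 arrays.

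Of the thioredoxin system, which regenerates peroxiredoxins, 12 genes have a probe and 8 were detected on both MCC and PCC, 2 at least 2-fold higher and 2 lower (14.2% and 21.1% of all genes), with a median of -0.19. Thioredoxin itself (Txn1) was 3.03-fold lower on MCC than on PCC, at log2 intensities of 10.47 on CCC, 8.77 on MCC and 10.37 on PCC, and the sulfiredoxin Srxn1, which repairs overoxidised peroxiredoxins, was lower by a log2 difference of -1.32. The thioredoxin inhibitor Txnip was 40.8-fold higher, at 10.32, 13.35 and 7.99, and the sestrin Sesn1 2.43-fold higher. The cytosolic reductase Txnrd1 and the sestrin Sesn3 were undetected on MCC, at least 1.59-fold and 3.88-fold lower than on PCC. The mitochondrial thioredoxin Txn2 differed by -0.21 and its reductase Txnrd2 by 0.66. For CCC minus PCC, 10 genes had a median of 0.12, with Txnip 5.02-fold higher, Sesn1 1.39-fold higher and Txnrd3 2.45-fold lower. Txnrd3 was dim on CCC, at 5.62 against a lowest detected value of 5.54. On CCC against MCC the median was -0.13 over 8 genes, or 0.68 without normalization, with Txn1 3.26-fold and Srxn1 2.34-fold higher and Txnip 8.14-fold and Txnrd3 2.18-fold lower.

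Of the glutathione system 12 genes have a probe, and of 8 detected on both MCC and PCC, 4 were at least 2-fold lower and 0 higher on MCC (21.1% and 14.2% of all genes), with a median of -0.95. The cystine importer Slc7a11, which supplies cysteine for glutathione, was 7.87-fold lower, at 7.84 on CCC, 6.58 on MCC and 9.56 on PCC. Its partner chain Slc3a2 was 2.17-fold, the glutaredoxin Glrx 2.94-fold and Ggct, which cleaves gamma-glutamyl peptides, 3.28-fold lower. Chac1, which degrades glutathione, was undetected on MCC, at least 19.5-fold lower than on PCC, and so was the glutathione synthase Gss, at least 2.43-fold lower. Gclc, the catalytic subunit of the first step of glutathione synthesis, and Oplah, which recycles oxoproline, were detected on MCC but missed the detection threshold on PCC, at least 1.43-fold (Gclc) and 3.57-fold (Oplah) higher. The mitochondrial glutaredoxin Glrx5 differed by 0.23 (MCC minus PCC) and by -0.64 without normalization, 0.39 and 0.11 above all genes. Glrx2 differed by -0.27 for the same pair. For CCC minus PCC the median was -0.10 over 10 genes, with Slc7a11 3.29-fold and Gss 1.64-fold lower and Glrx2 1.18-fold higher. On CCC against MCC it was 0.51 over 9 genes. Of these, 3 passed 2-fold upward (16.6% of all genes did) and 0 downward (17.3%). The 3 were Ggct (3.22-fold), Glrx (2.74-fold) and Slc7a11 (2.39-fold).

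**Figure D4:**
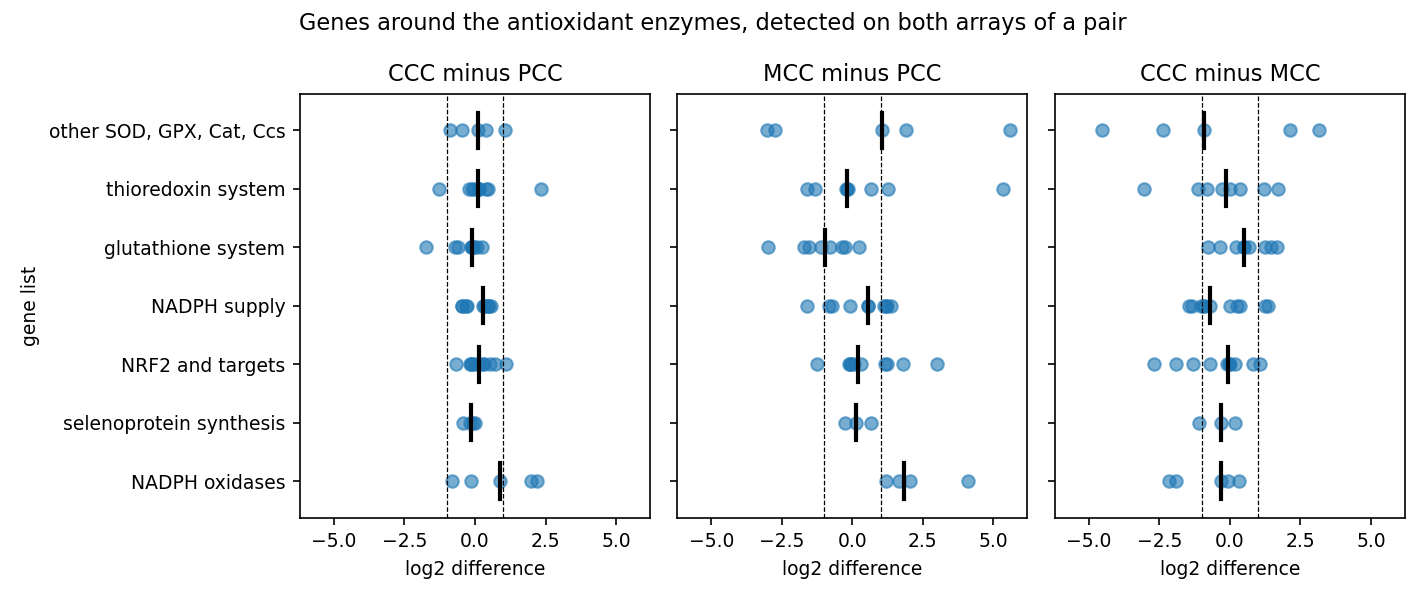
Log2 difference (horizontal axis) of the genes of 7 lists (vertical axis) in the 3 pairs of arrays, 1 point per gene detected on both arrays of the pair, with a black bar at each list's median and dashed lines at 2-fold. Txnip (5.35) and Gpx3 (5.60) lie far right and Slc7a11 (-2.98) and Sod3 (-3.02) far left in MCC minus PCC.

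Genes around the supply of NADPH, the reducing power behind both systems, had a median of 0.56 over 10 genes for MCC minus PCC, or -0.13 without normalization. The list includes the pentose phosphate enzymes Taldo1, Tkt and Rpia, which do not make NADPH themselves. G6pdx and Pgd have no probe named in the annotation used, and Nnt was undetected on every array. At least 2-fold higher were 4 of the 10 genes, and 1 was that much lower, against 14.2% and 21.1% of all genes. The transaldolase Taldo1 was 2.58-fold and the NAD kinase Nadk 2.36-fold higher, and the mitochondrial isocitrate dehydrogenase Idh2 3.09-fold lower, at 11.30 on CCC, 9.95 on MCC and 11.57 on PCC, with its cytosolic counterpart Idh1 1.76-fold lower. Aldh1l1, a folate enzyme, was undetected on PCC and at least 2.41-fold higher on MCC. For CCC minus PCC the median was 0.30 over 10 genes and 0 reached 2-fold (4.95% of all genes higher and 3.68% lower). The values ran from Tkt (-0.47) and Mthfd1 (-0.44) to Rpia (0.51) and the mitochondrial malic enzyme Me2 (0.57). Between CCC and MCC the median was -0.69 over 11 genes, or 0.22 without normalization, with Idh2 2.56-fold and Idh1 2.37-fold higher and Me1, the cytosolic malic enzyme, 2.73-fold and Aldh1l1 2.52-fold lower.

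NRF2, encoded by Nfe2l2, switches on many antioxidant genes, and Keap1 holds it back. Of 10 genes of that list detected on both MCC and PCC, 4 were at least 2-fold higher and 1 lower (14.2% and 21.1% of all genes), with a median of 0.20 that was -0.42 without normalization. The glutathione transferase Gstm1 was 8.03-fold and the biliverdin reductase Blvrb 3.47-fold higher and the NRF2 partner Mafg 2.41-fold lower. Haem oxygenase (Hmox1) was undetected on MCC, at least 1.63-fold lower than on PCC. For MCC minus PCC, Nfe2l2 differed by 0.32 (-0.06 without normalization, though 0.69 above all genes there) and Keap1 by -0.11. For CCC minus PCC they differed by 0.30 and -0.12. Nqo1, a commonly used NRF2 target, was undetected on all 3 arrays. For CCC minus PCC the list had a median of 0.14 over 11 genes, with Blvrb 2.15-fold and Gstp1 1.65-fold higher and Gsta4 1.61-fold lower. Between CCC and MCC it was -0.05 over 10 genes, with Mafg 2.11-fold higher and Gstm1 6.42-fold and Gsta4 3.78-fold lower.

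Selenoprotein synthesis genes, on which Gpx1 and Gpx4 depend, include 5 detected on at least 1 array of the pair MCC and PCC. The median was -0.13 over 4 genes for CCC minus PCC, 0.12 over 3 for MCC minus PCC and -0.30 over 3 for CCC minus MCC. All 3 took the other sign without normalization (0.15, -0.31 and 0.46), where the median of all genes was 0.13, -0.75 and 0.83. The widest difference was that of Secisbp2, which binds the selenocysteine insertion element, 2.14-fold lower on CCC than on MCC. Sephs1 was undetected on MCC and at least 1.94-fold lower than on PCC, and Sepsecs was detected on PCC alone. NADPH oxidases make superoxide. Of the list of their genes, 4 of 4 detected on both MCC and PCC were at least 2-fold higher on MCC (14.2% of all genes). These were Rac2 (17.0-fold), Noxo1 (4.09-fold), Ncf4 (3.16-fold) and Cyba (2.31-fold). Noxo1 was near the edge of detection on PCC, at 5.90 against a lowest detected value of 5.88. Nox4, of the same list, was detected on PCC and undetected on MCC, at least 1.85-fold lower. On CCC, Rac2 was 4.58-fold and Ncf4 3.99-fold higher than on PCC, Nox4 was 1.78-fold lower, and Ncf1 was at least 2.94-fold higher. The macrophage marker Lyz2 was 11.1-fold higher on CCC and 9.45-fold higher on MCC than on PCC. Of 8 macrophage markers detected on both MCC and PCC, however, 5 were lower on MCC, with a median log2 difference of -0.50. For CCC minus PCC, 8 of 9 were higher, with a median of 2.32. The macrophage sum was 30341 on CCC, 5784 on MCC and 5179 on PCC, and the lymphocyte sum was higher on both CCC and MCC than on PCC. The part of these cells in the oxidase values was not tested. Cybb, the catalytic subunit in phagocytes, was undetected on all 3 arrays.

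The genes nearest to the 3 members of widest range were found by the distance between log2 values centred over the 3 arrays, among 6753 genes detected on all of them. Nearest to Prdx4 were Pdia6 (distance 0.043), a disulfide isomerase of the endoplasmic reticulum, Jpt2 (0.045) and Tmem263 (0.067), with 33 genes within 0.2. Nearest to Sod1 were Aup1 (0.025), Riox2 (0.031) and Tmem42 (0.033), with 170 genes within 0.2, and nearest to Prdx2 were Med26 (0.0023), Hebp2 (0.015) and Nars (0.017), with 286 within 0.2. Over only 3 arrays many genes share a profile.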

How the data were processed

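Gene expression was measured on 3 Illumina mouse BeadChips, 1 each for CCC, MCC and PCC. The authors deposited probe intensities. The submitters' processing notes name GenomeStudio and no version. On each array 24.0% to 28.3% of the intensities are negative, which background subtraction gives. Each probe also has a deposited detection p-value, per the file headers. A second deposited table of intensities is a straight line of each array (slopes 0.865 for CCC, 1.53 for MCC and 0.926 for PCC, medians 32.0, 35.1 and 42.9). It is linear, not centred and of the same direction, and the method that gave the slopes is not stated.

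Of 25697 probes, 23978 have 1 symbol, and the other 1719, with none or several, were not assigned to a gene. The gene ID gave current symbols for 23962 probes. Background correction with negative controls inferred from detection p-values, an offset of 16, quantile normalization and log2 followed limma 3.58.1 (neqc) in R 4.3.3, with Python 3.11.15, numpy 2.4.6, pandas 2.3.3 and matplotlib 3.10.9 for the rest. A gene is given by its brightest probe detected (p under 0.01) on at least 1 array, and pairs use genes detected on both arrays. "At least" folds set the detected array against the higher of the other array's lowest detected value and the probe's own value. With 1 array per group no test was run, and the number of arrays limits the precision. The counting step was tested on simulated data.

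Alternatives were no normalization, 75th percentile scaling, no background correction, an offset of 50, the second table (floor of 16), detection p under 0.05, no filter, the mean of detected probes and other compartment choices. A normalization of CCC and PCC without the MCC array was added after seeing the data. The members and lists were chosen with earlier results of these data known. Named are all members, all other family genes, per list and pair mainly the 2 highest and 2 lowest genes and the lower bounds, the 2 brightest markers of each list, and the 3 nearest profiles of the 3 members of widest range. Genes added after their values were seen are Krt19, Esrp1, Cldn4, Ltf, Txn2, Txnrd2, Nfe2l2, Keap1, Nqo1, Cybb, Slc3a2 and Glrx. Promoter sequences come from RefSeq, and the motifs were chosen after the data were seen.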

Additional observations from a re-analysis of the deposited data

How the results depend on the processing

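With 1 array per group nothing could be left out within a group, and the spread used as a yardstick was the median gap between probes of the same gene. No paired analysis was possible because each group has 1 array and the labels give no replicate numbers. Of 78 recomputed summary values (medians of the members, their counts past 2-fold and the compartment gaps), 73 moved by less than that yardstick or, for counts, by no more than 1.5 times. Among the 73 are all values under detection p under 0.05 and no filter. These could not move, since every member was detected on every array. The other 5 came from 2 settings. Without normalization the members' median was -0.83 for MCC minus PCC and 1.51 for CCC minus MCC. For CCC minus MCC 5 members then passed 2-fold, all higher on CCC, against 3, beside 43.3% of all genes higher and 5.87% lower. With Gpx4 counted as mitochondrial and Gpx1 left out, the compartment gap was 0.83 for MCC minus PCC and -1.19 for CCC minus MCC. The counts of members hide their direction. For MCC minus PCC, 1 member higher and 2 lower became 0 and 3 under 75th percentile scaling, in the second table and without normalization, and for CCC minus MCC, 2 higher and 1 lower became 3 and 0 under the first 2 of these. Without normalization, 22 of 97 genes of the lists changed sign for CCC minus MCC, where the median of all genes was 0.83, 10 of 89 for MCC minus PCC and 21 of 96 for CCC minus PCC. Of genes at least 2-fold different, Sod1 (0.21) and Tkt (0.12) did so, both for CCC minus MCC. The members that changed sign were Sod1, Sod2 (0.86) and Gpx4 (0.61) for CCC minus MCC, Gpx1 (-0.61), Gpx4 (-0.09) and Sod2 (-0.82) for MCC minus PCC, and Prdx2 (0.07) and Sod2 (0.04) for CCC minus PCC. Adding Prdx5 to the mitochondrial members gave no value, since Prdx5 was not analysed here. With the MCC array left out of the normalization, a choice made after seeing the data, the CCC minus PCC median was 0.19, the compartment gap 0.06 and 0 members passed 2-fold.

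Counts over all genes moved more. For CCC minus PCC, 361 genes passed 2-fold upward and 268 downward, against 567 and 121 without normalization, 158 lower without background correction, 156 lower with an offset of 50 and 720 higher with no filter. For MCC minus PCC, 967 were higher and 1438 lower, against 473 and 2745 without normalization and 2014 higher with no filter. For CCC minus MCC, 1211 were higher and 1262 lower, against 3163 and 429 without normalization and 1875 lower with no filter. Genes near the lowest detected log2 intensity (5.54 on CCC, 5.60 on MCC and 5.88 on PCC), among them Sod3 on MCC and Txnrd3 on CCC, are limited by signal over background, which the 8 members are not.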
